A study of Mus musculus with 12 samples.

Results

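The mRNAs of the cytosolic ribosome were followed in mouse hearts with and without the glucocorticoid receptor in heart muscle cells. Members were the genes whose array name is Rpl or Rps with a number, together with Rplp0, Rplp1, Rplp2 and Rpsa, and each gene was read from its brightest probe. The rule gave 80 genes from 134 probes, of 21884 genes in the whole table. They were 42 proteins of the large subunit, 31 of the small subunit, the 3 stalk proteins and 4 paralogs of subunit proteins (Rpl3l, Rpl22l1, Rps27l and Rpl7l1). The rule uses names and mean brightness and no difference between groups, although the family was chosen with earlier results of these data known.

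Total RNA came from whole hearts of male C57BL/6 mice at 1 and 2 months of age, each heart on its own array, in 4 groups of 3. The knockout hearts (cardioGRKO) came from a cross of a floxed glucocorticoid receptor allele (GRflox) with the αMHC-Cre transgene, whose promoter drives Cre in heart muscle cells. The controls were littermates that carry the floxed allele without Cre, so both genotypes hold the floxed allele, and animals with Cre alone were not analysed here. The gene is deleted in heart muscle cells, while the RNA also holds that of fibroblasts, vessels, blood cells and attached fat. P-values measure the spread between these 12 hearts. Throughout, a level is the log2 processed intensity minus the array's own 75th percentile, and a difference is between group means of such levels. The 75th percentile ran from 885.758 to 1549.09 intensity units over the arrays, and from 67.5% to 82.2% of probes were well above background. All 3 control arrays at 1 month lay alone on 1 slide, so that group cannot be told apart from its slide. The second scan day was 1 slide that held only 2 knockout arrays, 1 of each age, so scan day lies partly with genotype.

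The label check was Nr3c1, the gene of the glucocorticoid receptor. Its level was 2.56, 2.11 and 2.11 in GRflox hearts at 1 month, and 1.21, 1.25 and 1.31 in cardioGRKO hearts. In the older mice it was 2.15, 2.04 and 1.99 in controls, and 0.96, 0.95 and 0.86 in knockouts. Every knockout array lay below every control array. The log2 difference was -0.998 (SE 0.12, adjusted p = 0.0513) at 1 month and -1.14 (SE 0.12, adjusted p = 0.0120) at 2 months by limma with Benjamini-Hochberg adjustment. All 8 cardiomyocyte markers (such as Myh6 and Tnnt2) were measured, and none was at 0.

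Ribosomal proteins assemble on ribosomal RNA in the nucleolus into a small subunit, which reads the mRNA, and a large subunit, which joins amino acids. Their mRNAs are among the most abundant in most cells, and in mammals they begin with a run of pyrimidines, the terminal oligopyrimidine (TOP) tract, through which growth signals and mTORC1 control their translation. Glucocorticoids act through their receptor as a transcription factor, and the heart muscle cells of a young mouse grow mainly by enlargement, which needs new ribosomes.

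The probes for the members that the results turn on are shown to make clear which stretch of each mRNA was read. Coordinates are those of the array files, on the mouse build mm7, and a probe whose span is longer than its 60 bases crosses an intron. The Rpl3 probe at chr15:80164240-80164814 (minus strand) and the Rpl3l probe at chr17:22917799-22918067 (plus strand) belong to a pair of paralogs. Capitals mark the longest run of letters the 2 probes share, which is 5 bases.
Rpl3: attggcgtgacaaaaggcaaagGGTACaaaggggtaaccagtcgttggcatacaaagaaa
Rpl3l: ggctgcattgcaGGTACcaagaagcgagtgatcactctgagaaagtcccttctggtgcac

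The Rps27l probe at chr9:66979145-66980835 (plus strand) and the Rpl22l1 probe at chr3:28622984-28623043 (plus strand) reach the end of the reading frame, and capitals mark the stop codon. The Rpsa probe at chr9:119824366-119824425 (plus strand) covers the start of the reading frame, and capitals mark the start codon.
Rps27l: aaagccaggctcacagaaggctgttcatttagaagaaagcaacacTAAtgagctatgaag
Rpl22l1: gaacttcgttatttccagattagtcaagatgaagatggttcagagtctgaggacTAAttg
Rpsa: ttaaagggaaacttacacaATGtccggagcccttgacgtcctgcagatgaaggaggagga

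The longest run shared by the probes of a paralog pair was 6 bases for Rps27 and Rps27l, 6 for Rpl22 and Rpl22l1, and 5 for Rpl7 and Rpl7l1. The longest run shared by any 2 member probes was 12 of 60 bases, between Rpl7 and Rps24. Ribosomal protein genes have many processed pseudogenes, and transcripts of such copies were not told apart from the parent gene here.

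RefSeq start regions on GRCm38.p6 were found for 60 of the 80 members. A run of at least 8 pyrimidines (C or T) on the sense strand, touching the 5 bases on either side of the annotated start, was present in 23 of these 60 (38.3%), against 11.4% of 27025 genes. Of the other motifs searched on both strands of the 300 bases from 250 before to 50 after the start, CCGGAAG, a core letter string bound by ETS factors, was in 24 of 60 members (40.0%) against 9.93% of all genes. TATAAA was in 7 (11.7%) against 15.7%. The glucocorticoid receptor's palindromic response element, with a free spacer, was in none of the 60, against 0.537% of all genes, which says only that these letters are not in this window. The 40 bases around the annotated start, 25 before and 15 after, are shown for 7 members with such a run, in capitals. They are followed by Rpl3l and Rpsa, whose longest runs touching the start in this way are 4 and 3 bases. Rps27l and Rpl3l each have 2 listed start regions, of which 1 is shown.
Rps6 (chr4:86857353-86857392, minus strand): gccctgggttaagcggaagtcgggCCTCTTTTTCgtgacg
Rps18 (chr17:33955651-33955690, minus strand): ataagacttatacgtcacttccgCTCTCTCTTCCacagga
Rpl15 (chr14:18270972-18271011, minus strand): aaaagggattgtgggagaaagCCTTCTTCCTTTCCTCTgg
Rpl28 (chr7:4792940-4792979, plus strand): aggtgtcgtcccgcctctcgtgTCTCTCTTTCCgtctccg
Rps27 (chr3:90213634-90213673, minus strand): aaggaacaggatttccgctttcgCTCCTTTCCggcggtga
Rpl22l1 (chr3:28805483-28805522, plus strand): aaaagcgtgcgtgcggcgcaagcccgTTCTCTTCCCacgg
Rps27l (chr9:66946061-66946100, plus strand): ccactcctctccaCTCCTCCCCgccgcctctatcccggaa
Rpl3l (chr17:24727801-24727840, plus strand): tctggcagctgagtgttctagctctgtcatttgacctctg
Rpsa (chr9:120127741-120127780, plus strand): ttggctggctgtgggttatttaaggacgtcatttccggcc

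As a family, the ribosomal protein mRNAs were abundant and steady across the 12 hearts. All 80 members were well above background on every array that measured them, none was saturated, and 79 had a mean level above the array's 75th percentile, with Rpl14 at -0.04 the exception. The SD of a member over all 12 arrays had a median of 0.119 on the log2 scale, from 0.0647 for Rpl17 to 0.498 for Rpl21. For 56 members the highest and the lowest array differed by less than 0.5. The range exceeded 1 in 3 members, namely Rpl21 (1.85), Rps27a (1.22) and Rps26 (1.06). A value was present on 12 arrays for 72 members and on 11 arrays for 8, whose remaining spot was marked non-uniform or an outlier and left out.

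On each array, the median over the members of their deviation from the 12-array mean was taken. It was 0.01, -0.01 and 0.03 on the GRflox arrays at 1 month, and -0.08, 0.00 and -0.04 on the cardioGRKO arrays. It was, at 2 months, -0.13, 0.10 and -0.01 in GRflox hearts, and 0.03, 0.11 and 0.01 in cardioGRKO hearts. The genotypes overlapped at each age, and the widest spread was within the 2-month controls. Over all genes the same quantity ran from -0.14 to 0.16, a range that takes in that of the members.

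**Figure D1:**
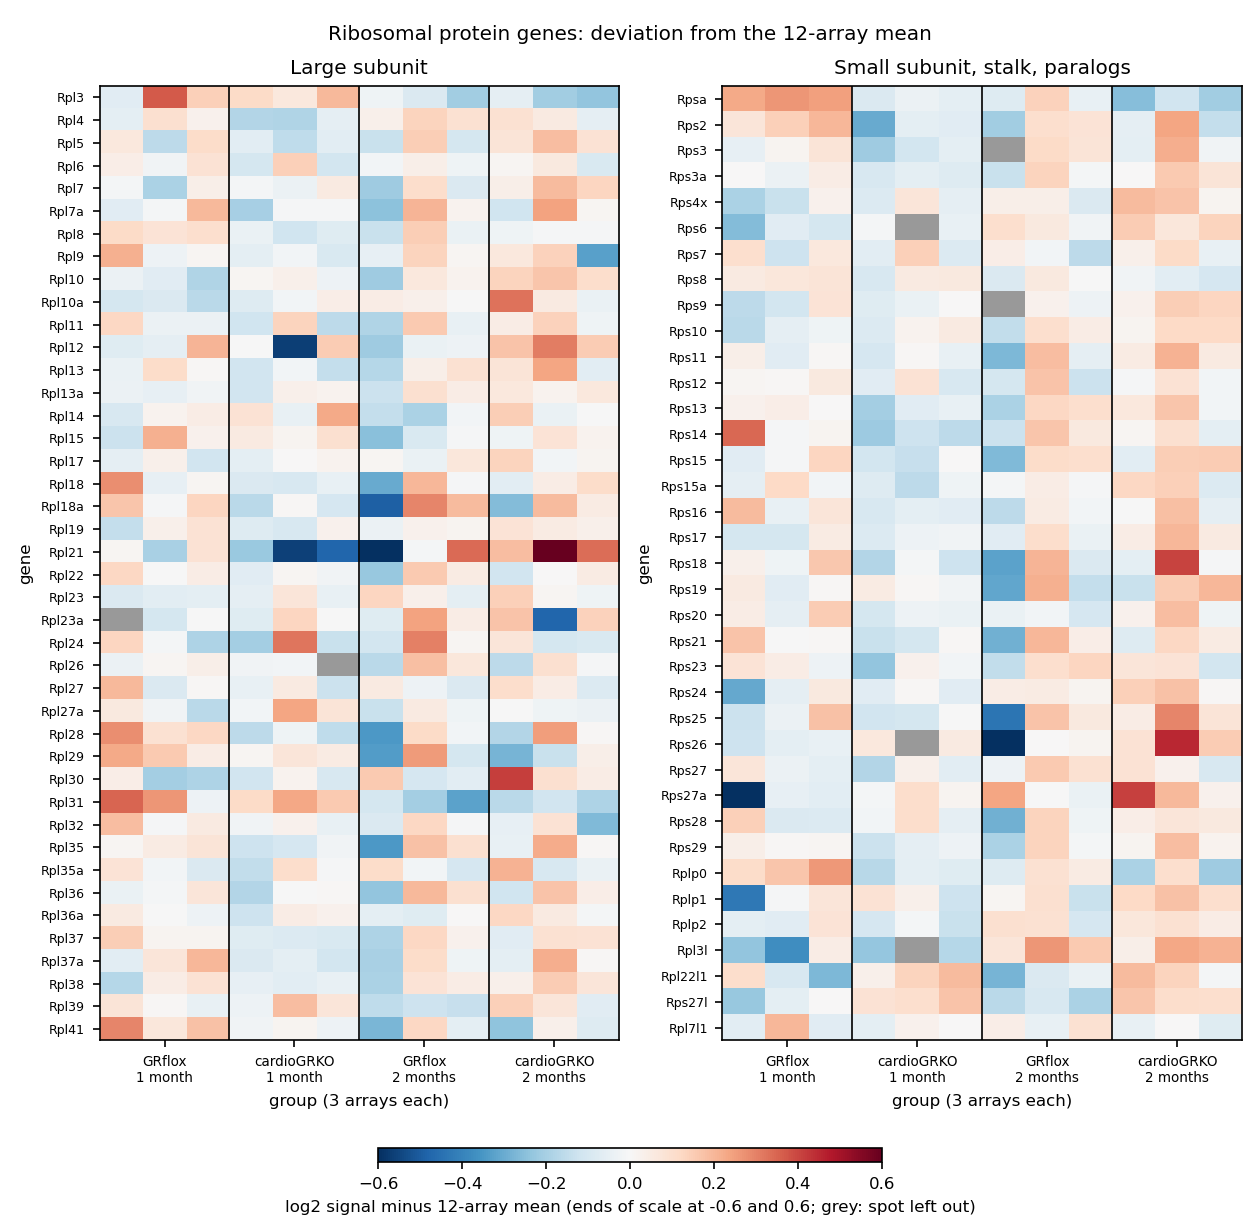
Deviation of 79 of the 80 members (rows) from its own mean over 12 arrays, in log2 units, for 3 hearts in each of 4 groups (columns); the colour scale ends at -0.6 and 0.6 and grey marks a spot that was left out. Most cells are pale, and Rpl21 and Rps27a hold the strongest colours. GRflox 2-month replicate 1 is low in many members, with a median deviation of -0.13 over all 80.

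Which ribosomal protein mRNAs differ when heart muscle lacks the receptor was asked first at 1 month. No member passed the limma test at an adjusted p of 0.05, where 6 genes of the whole table did (0.0274%). At an unadjusted p under 0.05 there were 4 members of 80 (Rplp0, Rps14, Rps27l and Rpsa), which is 5.0% against 6.06% of all genes. The smallest adjusted p among members was 0.586. The members' median log2 difference was -0.06, against 0.04 over all genes, with 26 of 80 above 0 (32.5%, against 56.8% of all genes). That sign depended on how arrays were scaled, with a median of 0.01 after normexp background and quantile scaling, 0.03 after quantile scaling and -0.30 after centring on the median, which itself moved the median of all genes to -0.20. With scan day as a term in the fit it was -0.03. The large and small subunits had medians of -0.06 and -0.08. In whole hearts, fewer cells of a type and less RNA per cell cannot be told apart. The cardiomyocyte markers had a median log2 difference of -0.24 in the same comparison, with 0 of 8 above 0 and summed linear levels of 2858 to 3439 in controls and 2234 to 2906 in knockouts. Markers of dividing cells had -0.44 (0 of 8 above 0), endothelial markers -0.18 (0 of 8), macrophage markers -0.06 (3 of 8) and fibroblast markers 0.00 (4 of 8). Adipocyte markers had 1.36 (7 of 8), lymphocyte markers 0.39 (7 of 8), and erythroid markers -0.28 (0 of 4 measured). Of the 5 lung epithelium markers only 1 was well above background on all arrays. None of these markers passed the test here, and their part in the members' values was not tested.

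At 2 months again no member passed, where 30 genes of the table did (0.137%), and the smallest adjusted p among members was 0.365 by limma. At an unadjusted p under 0.05 there were 4 members (Rpl21, Rps26, Rps27l and Rpsa), 5.0% against 7.65% of all genes. The members' median difference was 0.07, against 0.03 over all genes, with 58 of 80 above 0 (72.5%, against 54.7%). This median kept its sign at 0.03, 0.04 and 0.03 under the other scalings, and the large and small subunits had 0.05 and 0.08. The cardiomyocyte markers had a median of 0.03, with 5 of 8 above 0. Endothelial markers had -0.16 (0 of 8), lymphocyte markers 0.52 (8 of 8), adipocyte markers 0.67 (7 of 8), markers of dividing cells 0.26 (7 of 8), fibroblast markers 0.12 (7 of 8) and macrophage markers 0.09 (6 of 8). Here too the adipocyte value included 1 low control, with median deviations of 0.14, -3.12 and 0.41 in controls and -0.25, -0.61 and 0.60 in knockouts. None of these markers passed, and the part of all these cell types in the members' values was not tested. On the 1 slide that held both genotypes at this age, with 2 knockout arrays and 1 control, the members' median was 0.07 and that of all genes 0.00. The 2 knockout comparisons share no array.

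The test of the change in knockout effect between the ages called no gene at all (0.0%), with 295 genes at an unadjusted p under 0.05 (1.35%) by limma. Of the members only Rpl21 had an unadjusted p under 0.05, and its 2 probes disagreed, as given further on. The median of this difference over members was 0.10, with 68 of 80 above 0 (85%, against 46.0% of all genes), and it was 0.03, 0.01 and 0.31 under the other 3 scalings. The knockout difference averaged over both ages, a comparison added after the data were seen, called no member, where 0.736% of all genes passed. At an unadjusted p under 0.05 it had 4 members (Rpl22l1, Rplp0, Rps27l and Rpsa), 5.0% against 11.6% of all genes, and 40 of 80 lay above 0 (against 56.8%).

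**Figure D2:**
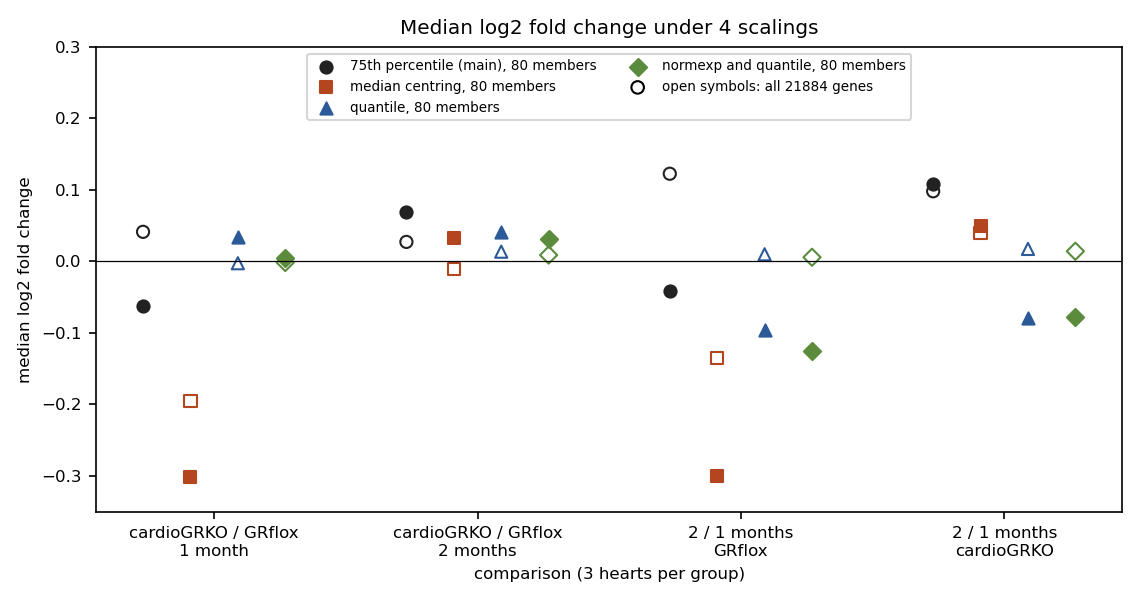
Median log2 difference of the 80 ribosomal protein genes (filled) and of all 21884 genes (open) in 4 comparisons, each under 4 ways of scaling the arrays. The members' median at 1 month is -0.06 with the 75th percentile and 0.01 to 0.03 with the quantile scalings, and in the knockouts' age comparison it turns from 0.11 to -0.08.

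The arrays bounded how far most members could differ. At 1 month the 95% interval of the knockout difference lay within 0.5 of 0, on the log2 scale, for 69 of 80 members, and within 1 for 79. At 2 months these counts were 72 and 79, and Rpl21 was the exception to the wider bound at both ages. A member's difference had a median SE of 0.104, against 0.197 over all genes.

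**Figure D3:**
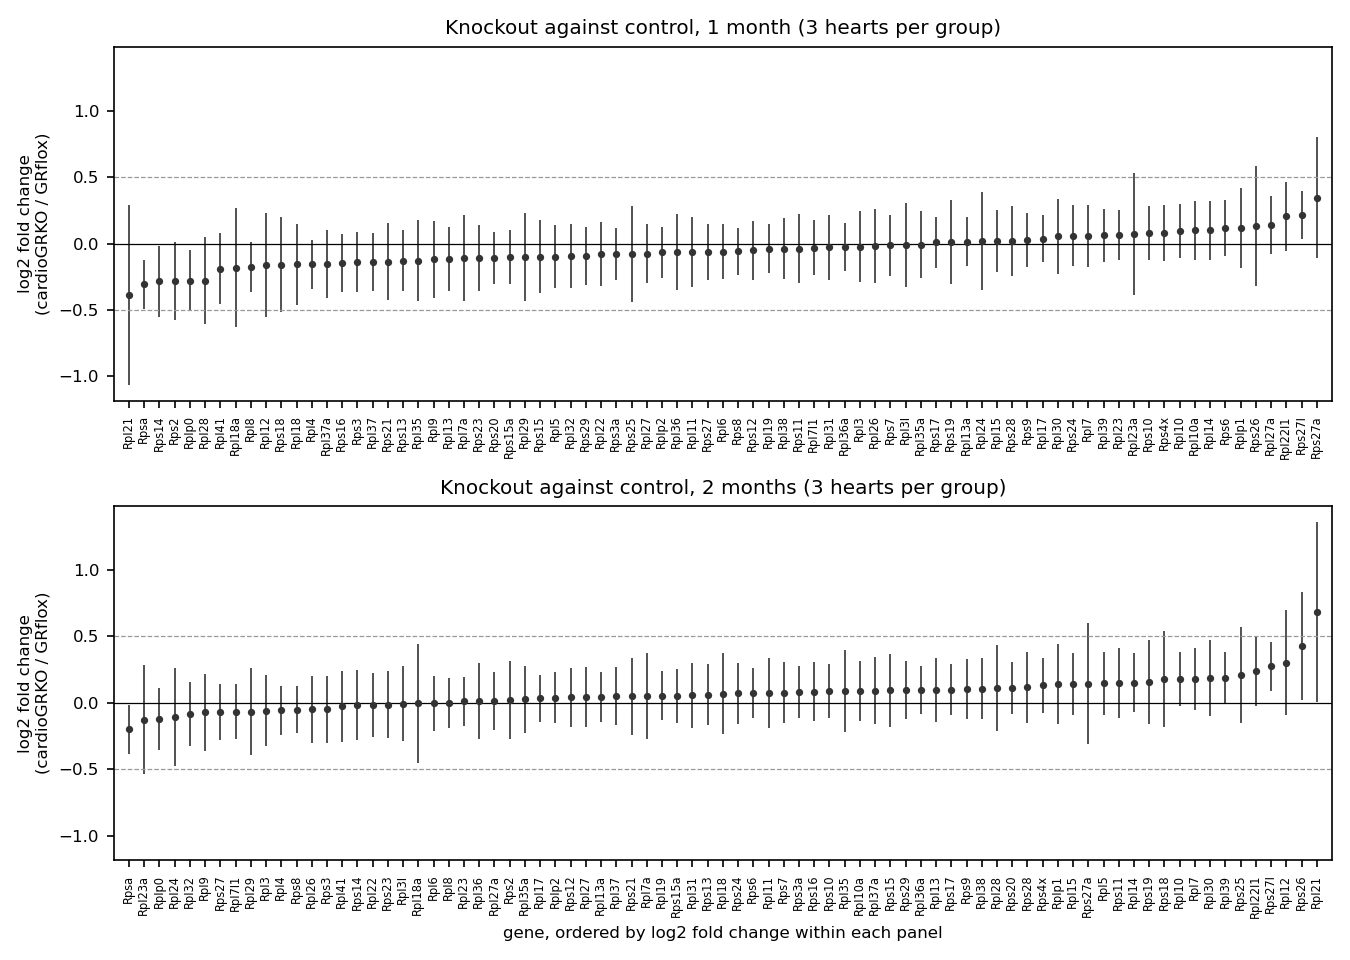
Log2 difference between knockout and control with its 95% interval for 79 of the 80 members at 1 month and at 2 months, with dashed lines at -0.5 and 0.5. Rpsa lies lowest among the narrow intervals at 1 month (-0.31), Rpl21 has the widest interval, and no member passed the adjusted test at either age.

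Counts of members whose knockout arrays all lay above or all below the controls, on the arrays that measured them, were set beside the same share over all genes. Members such as Rps6 and Rps26 enter with 2 knockout arrays at 1 month, where such separation is easier to reach than with 3. At 1 month 23 members did so (28.7%, against 18.1% of all genes), 16 of them lower (20%, against 9.03%) and 7 higher (8.75%, against 9.04%). The 16 lower ones took in Rpl8, Rpl28, Rpl35, Rpl41, Rplp0, Rps2, Rps14, Rps16 and Rpsa. At 2 months there were 9 (11.2%, against 12.4%), of which 8 were higher (10%, against 6.15%) and only Rpsa was lower (1.25%, against 6.26%). Rps26, Rps27l and Rpl10 were on the higher side at both ages. All 3 control arrays at 1 month shared a slide that held no knockout. Separation was counted only with the scaling of the main fit. At 1 month that fit had 26 of 80 members above 0. There were 51 after quantile scaling, 41 after normexp background and quantile scaling, and 1 after median centring. Whether the larger share of lower members at 1 month holds under the quantile scalings was not tested.

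Of the small-subunit proteins, Rpsa lay lowest at both ages. It encodes a protein of the 40S subunit that also occurs at the cell surface as a laminin receptor. Its level was 4.73, 4.77 and 4.75 in GRflox hearts at 1 month and 4.42, 4.47 and 4.44 in cardioGRKO hearts. At 2 months it was 4.43, 4.64 and 4.46 in GRflox hearts and 4.25, 4.39 and 4.29 in cardioGRKO hearts. The knockout arrays lay below the controls of the same age at both ages, without overlap. The log2 difference was -0.31 (SE 0.08, 95% interval -0.49 to -0.12, adjusted p = 0.586) at 1 month and -0.20 (SE 0.08, adjusted p = 0.592) at 2 months, so neither passed limma's test. In the mean of both ages it was -0.25 (SE 0.06, adjusted p = 0.101). Its sign stayed negative in all 25 alternatives of that mean. Limma's test was passed in 2, with adjusted p = 0.0332 under trend and robust moderation and 0.0237 with array weights. Those 2 settings called 340 and 1284 genes of the whole table, against 161 in the main fit. The second Rpsa probe gave -0.16 at 1 month and 0.01 at 2 months.

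Rps27l stood on the opposite side. It is the paralog of the small-subunit protein Rps27 and is known as a target of p53. Its level was 5.14, 5.30 and 5.37 in GRflox hearts at 1 month and 5.45, 5.46 and 5.53 in cardioGRKO hearts. At 2 months it was 5.20, 5.27 and 5.17 in GRflox hearts and 5.53, 5.47 and 5.46 in cardioGRKO hearts. All 6 knockout arrays lay above all 6 controls. On the arrays measured this order held for 2 members of 80 (Rps27l, and Rps26 with 5 knockout arrays, 2.5%) and for 0.731% of all genes in this direction (1.46% in either). The log2 difference was 0.21 (SE 0.08, adjusted p = 0.765) at 1 month, turning to -0.02 under median centring, and 0.27 (SE 0.08, adjusted p = 0.365) at 2 months. The mean of both ages was 0.24 (SE 0.06, 95% interval 0.11 to 0.37, adjusted p = 0.112), which is 1.18-fold. The mean passed limma's test in 2 of 25 alternatives, with adjusted p = 0.0376 under trend and robust moderation and 0.0111 with array weights. As given for Rpsa, these settings called 340 and 1284 genes of the whole table, against 161. Rps27 itself, at 7.30, 7.19 and 7.17 against 7.05, 7.25 and 7.16 at 1 month, had differences of -0.06 and -0.07.

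Of the other p53 genes, Rpl5 and Rpl11, which hold the ubiquitin ligase Mdm2 in check when ribosome assembly fails, had differences of -0.10 and -0.06 at 1 month and of 0.15 and 0.08 at 2 months. None of the 13 measured genes of p53 control and stress, of 15 listed, passed in the 5 planned comparisons. Cdkn1a, the p53 target that stops the cell cycle, had a log2 difference of 1.03 (SE 0.40, adjusted p = 0.565) at 2 months, and Trp53 itself 0.60 (SE 0.39, adjusted p = 0.865).

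Rpl22l1, the paralog of the large-subunit RNA-binding protein Rpl22, measured 4.68, 4.48 and 4.31 in GRflox and 4.61, 4.71 and 4.77 in cardioGRKO hearts at 1 month. At 2 months it measured 4.30, 4.49 and 4.54 in GRflox and 4.77, 4.71 and 4.57 in cardioGRKO hearts. The groups overlapped at 1 month and did not at 2 months. The differences were 0.20 (SE 0.12) and 0.24 (SE 0.12), and 0.22 (SE 0.08, adjusted p = 0.334) for the mean of both ages. The second Rpl22l1 probe, well above background on 8 of 12 arrays, gave 0.90 (SE 0.87) and -0.82 (SE 0.87), and with the mean of both probes the 2-month difference turned to -0.29. Rpl22 had -0.08 and -0.02. The remaining pair, Rpl7 and Rpl7l1, had 0.06 and -0.03 at 1 month and 0.18 and -0.07 at 2 months, none of which passed. Rpl39 and Rpl10, the latter a late-joining protein of the large subunit, had 0.19 and 0.18 at 2 months.

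The stalk of the large subunit recruits the elongation factors. Its base protein Rplp0 measured 3.79, 3.84 and 3.94 in GRflox and 3.51, 3.62 and 3.61 in cardioGRKO hearts at 1 month, without overlap. A month later it measured 3.60, 3.77 and 3.73 in GRflox and 3.49, 3.78 and 3.47 in cardioGRKO hearts, with overlap. The differences were -0.28 (SE 0.10, adjusted p = 0.763) and -0.12. A further pair of probes, which the array names Arbp and which lay outside the rule, read the same gene and gave -0.17 and -0.24 at 1 month, and 0.00 and -0.13 at 2 months. Its partners Rplp1 and Rplp2 had 0.12 and -0.07 at 1 month, and 0.14 and 0.04 at 2 months.

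Several other small-subunit and large-subunit proteins sat at the ends of the 1-month range. Rps14 measured 7.99, 7.63 and 7.65 in GRflox and 7.42, 7.52 and 7.48 in cardioGRKO hearts, a difference of -0.28 (SE 0.12, adjusted p = 0.791). Rps2 had -0.28 (SE 0.13) and Rpl28 -0.28 (SE 0.14), both with overlap-free groups, and at 2 months they had 0.02 and 0.11. Rps6, the target of S6 kinase below mTORC1, had 0.12 and 0.07. Rps19, the gene most often mutated in Diamond-Blackfan anaemia, had 0.01 and 0.15, and the X-linked Rps4x 0.08 and 0.13. The lowest values at 2 months after Rpsa were those of Rpl23a (-0.13), Rplp0 (-0.12), Rpl24 (-0.11) and Rpl32 (-0.09).

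A few members owed their place to 1 array or 1 probe. Rps27a, which is made as a fusion with ubiquitin, measured 5.49 on GRflox 1-month replicate 1 and 6.26 and 6.25 on the other controls, while the knockouts measured 6.30, 6.42 and 6.32. Its difference of 0.35 (SE 0.20) at 1 month therefore included 1 low control. Rps26 measured 3.31 on GRflox 2-month replicate 1, 3.92 and 3.94 on the other controls and 4.01, 4.38 and 4.07 in knockouts, a difference of 0.43 (SE 0.18, adjusted p = 0.613). Rpl12 measured 5.85 on cardioGRKO 1-month replicate 2, and 6.41 and 6.56 on the other knockouts of that age.

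Rpl21 had the highest difference of any member at 2 months, and its probes disagreed. The probe the rule took, designed on a predicted transcript, gave 0.78, 0.58 and 0.86 in GRflox and 0.55, 0.22 and 0.30 in cardioGRKO hearts at 1 month. In the older hearts it gave 0.10, 0.76 and 1.11 in GRflox and 0.96, 1.95 and 1.11 in cardioGRKO hearts. Its differences were -0.39 (SE 0.30) and 0.68 (SE 0.30, adjusted p = 0.646), while the other probe gave 0.01 and 0.04. Over all 40 members with more than 1 probe there were 51 other probes, of which 31 had the sign of the rule's probe at 1 month and 29 at 2 months. The median gap between the 2 readings at 2 months was 0.0659 for the 32 brighter probes and 0.287 for the 19 dimmer ones.

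How the family changes as the heart grows from 1 to 2 months was the second question, asked in each genotype. In controls no member passed limma's test, where 2.16% of all genes did, and the smallest adjusted p among members was 0.103. At an unadjusted p under 0.05 there were 4 members (Rpl31, Rpl3l, Rps6 and Rpsa), against 15.9% of all genes. The members' median difference was -0.04, against 0.12 for all genes, with 27 of 80 above 0 (33.8%, against 64.5%). It was -0.13, -0.10 and -0.30 under the other scalings, and it turned to 0.04 without GRflox 2-month replicate 1. Both subunits had a median of -0.04. The groups did not overlap for 9 members (11.2%, against 23.0% of all genes), with 5 higher at 2 months (Rpl10a, Rpl3l, Rps27a, Rps3 and Rps6, against 14.4% of all genes) and 4 lower (Rpl31, Rpl39, Rplp0 and Rpsa, against 8.59%).

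In knockouts no member passed either, where 0.818% of all genes did, and the smallest adjusted p was 0.167 by limma. There were 4 at an unadjusted p under 0.05 (Rpl3, Rpl3l, Rpl21 and Rpl31), against 15.1% of all genes. The median was 0.11, against 0.10 for all genes, with 64 of 80 above 0 (80%, against 62.6%), but it turned to -0.08 after either quantile scaling. The small subunit had a median of 0.15 (29 of 31 above 0) and the large subunit 0.07 (30 of 42 above 0). Groups did not overlap for 31 members (38.8%, against 25.4% of all genes), of which 28 were higher at 2 months (35%, against 14.4%) and 3 lower (Rpl3, Rpl31 and Rpsa, 3.75%, against 10.9%). This separation was not counted under the other scalings, where 12 members lay above 0 after either quantile scaling and 54 after median centring. On the slide that held 1 knockout array of each age the median was 0.11 for members and 0.11 for all genes. The age comparisons share their arrays with the knockout comparisons, and the test of a different age effect between genotypes is the one given above.

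In the mean of both genotypes, a comparison added after the data were seen, 2 members passed limma's test (Rpl31 and Rpl3l), which is 2.5% against 8.96% of all genes. Rpl3l was the 1 member that rose (4.33% of all genes) and Rpl31 the 1 that fell (4.63%). The members' median was 0.03, with 55 of 80 above 0 (68.8%, against 65.6%), and it turned to -0.10, -0.08 and -0.12 under the other scalings. At an unadjusted p under 0.05 there were 5 (Rpl3, Rpl31, Rpl3l, Rps6 and Rpsa), 6.25% against 25.5%. Markers of several cell types moved with age in the same arrays. Of 8 fibroblast markers, 5 fell in the mean of genotypes (Col1a1, Col1a2, Col3a1, Lum and Postn), 4 in controls and 3 in knockouts. Their summed linear level was 308 to 369 at 1 month and 237 to 262 at 2 months in controls, and 363 to 379 and 247 to 303 in knockouts. Of 8 markers of dividing cells, 6 fell in the mean and in controls (Mki67, Top2a, Ccna2, Cdk1, Mcm6 and Birc5) and 2 in knockouts. Their summed levels were 21.6 to 25.7 and 12.3 to 13.0 in controls, and 18.3 to 19.6 and 12.9 to 13.8 in knockouts. Endothelial markers (median -0.23), macrophage markers (-0.24, with Cd68 the 1 that fell) and adipocyte markers (-1.04) each had 1 of 8 above 0 in the mean, and cardiomyocyte markers had 0.11 with 7 of 8. None of these markers was at 0 at either age, and their part in the members' values was not tested.

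Rpl31, a large-subunit protein at the mouth of the exit tunnel, fell with age by the probe the rule took. That probe's mean level, 0.18, was the lowest of the members after Rpl14, and the second Rpl31 probe had -1.15. Whether either probe reads the main Rpl31 mRNA was not tested. The rule's probe measured 0.53, 0.45 and 0.15 in GRflox and 0.30, 0.41 and 0.34 in cardioGRKO hearts at 1 month. By 2 months it measured 0.08, -0.02 and -0.14 in GRflox and 0.02, 0.07 and 0.00 in cardioGRKO hearts. All 6 arrays at 2 months lay below all 6 at 1 month, which held for no other member and for 3.38% of all genes. The opposite order held for no member and for 3.14% of all genes, and either order for 6.52%. The log2 difference was -0.41 (SE 0.11, adjusted p = 0.103) in controls, -0.32 (SE 0.11, adjusted p = 0.201) in knockouts and -0.36 (SE 0.08, 95% interval -0.54 to -0.19, adjusted p = 0.0211) in the mean, or 1.29-fold lower. The mean was negative in all 25 alternatives and passed in 18 of them. It missed the threshold with median centring (adjusted p = 0.279), with the mean of both Rpl31 probes (0.0528) and when the second scan day was left out (0.0787). It missed it as well without GRflox 1-month replicate 2 (0.0564), without GRflox 2-month replicate 3 (0.0510), and without cardioGRKO 1-month replicate 2 (0.0526) or 3 (0.0546). In controls alone it passed without GRflox 1-month replicate 3, with adjusted p = 0.0350. The second Rpl31 probe gave -0.19, and on the slide with 1 knockout array of each age the rule's probe gave -0.30. A stop codon was present in 2 of the 3 forward frames of the rule's probe and in all 3 of the other's, so only the former can lie wholly in coding sequence.

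Rpl3l rose with age while its paralog Rpl3, a core protein near the peptidyl transferase centre, had the opposite sign. Rpl3l is the form of this protein made in heart and skeletal muscle. It measured 4.59, 4.46 and 4.88 in GRflox hearts and 4.60 and 4.66 in the 2 cardioGRKO hearts measured at 1 month. At 2 months it measured 4.90, 5.10 and 4.99 in GRflox and 4.87, 5.06 and 5.04 in cardioGRKO hearts. The groups did not overlap in controls, where the lowest 2-month array was 4.90 and the highest 1-month array 4.88. The log2 difference was 0.35 (SE 0.12, adjusted p = 0.207) in controls, 0.36 (SE 0.14, adjusted p = 0.269) in knockouts and 0.36 (SE 0.09, 95% interval 0.15 to 0.57, adjusted p = 0.0498) in the mean, or 1.28-fold higher. This call lay at the threshold: the sign held in all 24 alternatives, with values from 0.22 to 0.41, but only 4 of them passed, and the adjusted p ran from 0.00457 to 0.643. Of the fits that leave out 1 array each, the one without GRflox 1-month replicate 3 passed (adjusted p = 0.0195), and the others gave 0.0588 to 0.121.

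Rpl3 measured 4.62, 5.06 and 4.83 in GRflox and 4.80, 4.75 and 4.88 in cardioGRKO hearts at 1 month. At 2 months it measured 4.67, 4.60 and 4.48 in GRflox and 4.64, 4.48 and 4.46 in cardioGRKO hearts. Its difference was -0.25 (SE 0.12, adjusted p = 0.333) in controls, -0.29 (SE 0.12, adjusted p = 0.290) in knockouts and -0.27 (SE 0.08, adjusted p = 0.0768) in the mean, which did not pass, although 5 alternatives did. Within an array, the deviation of Rpl3l minus that of Rpl3 ran from -0.75 to -0.10 on the 5 arrays at 1 month that measured both, and from 0.08 to 0.44 on the 6 at 2 months. These ranges did not overlap, and the values come from the pair of fits just given. On the slide with 1 knockout array of each age Rpl3l had 0.44 and Rpl3 -0.35. Between genotypes, Rpl3l had -0.01 at both ages, and Rpl3 had -0.02 and -0.06.

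**Figure D4:**
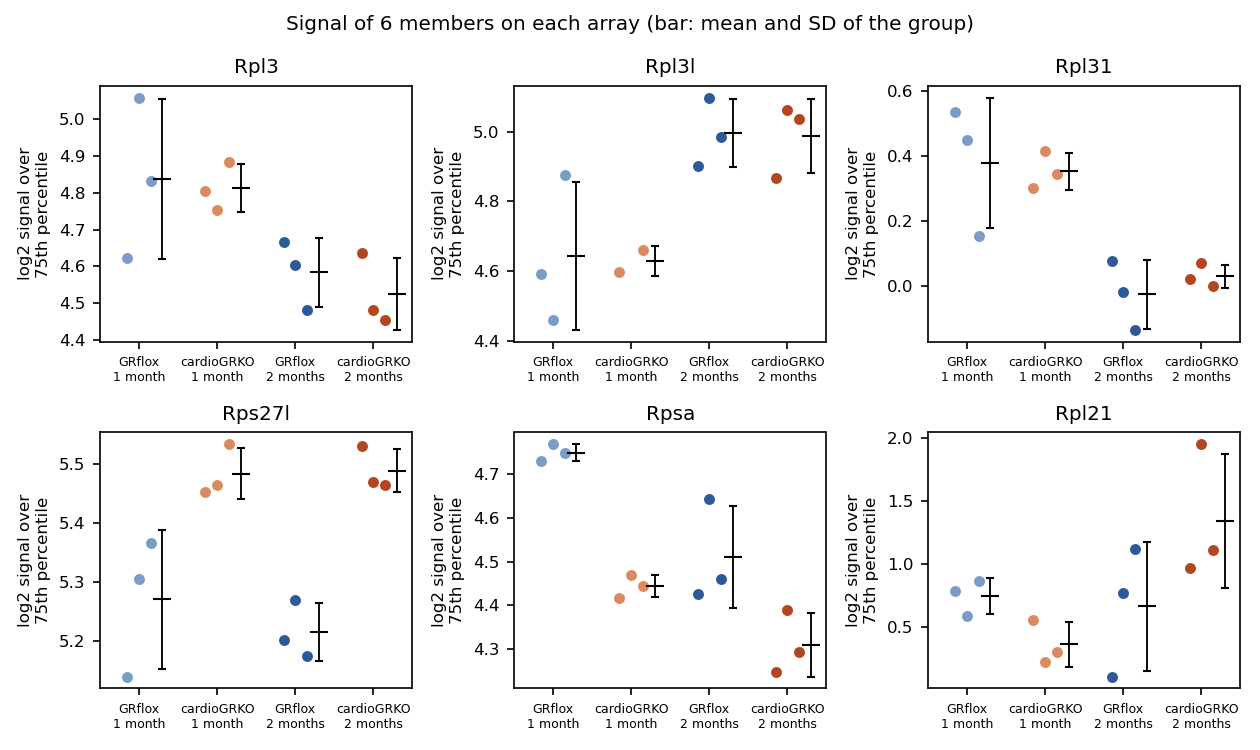
Log2 level relative to the array's 75th percentile on each array (points) with group mean and SD, for Rpl3, Rpl3l, Rpl31, Rps27l, Rpsa and Rpl21, with 3 hearts per group except 2 for Rpl3l in the 1-month knockouts. Rpl31 is lower at 2 months on all arrays and Rpl3l higher in its group means (about the same in both genotypes), while Rps27l lies higher and Rpsa lower in knockouts at each age.

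Other members at the ends of the age range did not pass. Rpsa had -0.24 in controls and -0.19 (SE 0.06, adjusted p = 0.0792) in the mean. Rps6 measured 5.22, 5.41 and 5.38 in GRflox hearts at 1 month and 5.59, 5.54 and 5.46 at 2 months, and its mean difference was 0.17 (SE 0.06, adjusted p = 0.136). In controls Rpl41 and Rpl28 had -0.25 each, Rpl10a and Rps24 0.14 each, and Rps27a 0.37 with the low array named above. In knockouts Rpl21 had 0.98 (SE 0.30, adjusted p = 0.167) against 0.12 by its other probe. Rpl12 had 0.35 (SE 0.17), Rpl30 0.25 and Rps18 0.22, and at the low end Rpl29 had -0.17, Rpsa -0.13 and Rpl27a -0.12.

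Genes around the cytosolic ribosome gave a wider frame. The 78 mitochondrial ribosomal proteins, which build a separate ribosome for the respiratory chain, had no member past the test in the 5 planned comparisons. Their medians were -0.08 (20 of 78 above 0) and -0.05 (33 of 78) for the knockout at 1 and 2 months, and 0.10 (67 of 78) and 0.15 (69 of 78) for age in controls and knockouts. In the means, Mrpl37 fell in knockouts by 0.35 (SE 0.05, adjusted p = 0.0240), and Mrpl28, Mrpl51, Mrps23 and Mrps25 rose with age by 0.18 to 0.28. Other mRNAs with a TOP start, such as those of elongation factors, gave 19 genes with medians of -0.08 and 0.06 for the knockout at 1 and 2 months. The cytosolic ribosomal proteins had -0.06 and 0.07. In this list Vim, an intermediate filament gene of mesenchymal cells, fell with age in controls by 0.50 (SE 0.10, adjusted p = 0.0348), and Eif3e rose in the mean of genotypes by 0.33. Eef1a1, the elongation factor that brings aminoacyl-tRNA, had 0.14 and 0.24 for the knockout, Eef1g 0.05 and 0.23, and Hnrnpa1 -0.29 and 0.17.

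Of the 28 initiation factors none passed in the planned comparisons, and Eif1 (0.25) and Eif4a2 (0.34) rose with age in the mean of genotypes. Among 40 genes of ribosome assembly and RNA polymerase I, Polr1e, a subunit of RNA polymerase I, rose in knockouts at 2 months by 0.86 (SE 0.12, adjusted p = 0.0337), with 0.42 at 1 month, which did not pass. Taf1d, part of the polymerase's selectivity factor, fell with age in controls by 0.71 (SE 0.11, adjusted p = 0.0136), and Riok2 rose in the mean of genotypes by 0.25. Of 33 measured genes of mTORC1, S6 kinase and Myc, Ddit4l, an inhibitor of mTORC1, rose in knockouts at 1 month by 0.66 (SE 0.08, adjusted p = 0.0458) and had 0.43 (adjusted p = 0.0986) at 2 months. In the mean of genotypes Tsc2 rose with age by 0.34, and Eif4ebp2, Sesn2, Irs1 and Mycn fell by 0.28, 0.22, 0.45 and 0.71. Ddit3 (0.42) and Eif2ak3 (-0.34), both of the stress list, passed for age as well. The alternatives were run for the members and the whole-table counts, not for these other genes.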

How the data were processed

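Cy3-labelled cRNA was made from 500 ng of RNA, per the labels' protocols, and Agilent Feature Extraction 9.5 is the scan reader that the submitters' processing notes name. The deposited processed signal is, per the file headers, an intensity with spatial and multiplicative trends removed, surrogate values for dim spots and no local background subtracted; the deposited value table equals it. Controls and spots marked non-uniform or population outliers were left out (3 to 310 non-uniform spots per array). Spots of a probe were averaged into 41174 probes. The log2 of the deposited intensity minus each array's 75th percentile entered a linear model (limma 3.58.1, R 4.3.3) with 1 mean per group over 12 arrays, two-sided, with Benjamini-Hochberg adjustment over 21884 genes at 0.05. A probe entered if well above background on 3 of 12 arrays. Names were updated through RefSeq; members keep the file's. Python 3.11.15 and matplotlib 3.10.9 were used for counts and figures, and the fit was tested on simulated data.

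The members and all lists (mitochondrial ribosomal proteins, TOP and elongation, initiation, assembly and RNA polymerase I, mTORC1 with Myc, p53 and stress, cell markers) were chosen with earlier results of these data known. Named are members that pass, the 5 highest and 5 lowest per comparison, the paralog pairs, the stalk proteins, Rpsa, Rps6, Rps19, Rpl5, Rpl11 and Rps4x, and of each list the genes that pass or up to 3 with the largest knockout difference. No member carried the name Rpl39l or Rpl10l, so neither is given. Values of 1 member are not reported here by name. Alternatives changed the background, scaling, filter, probe choice, slide, scan day, replicate block, moderation, weights and arrays used.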

Additional observations from a re-analysis of the deposited data

How the results depend on the processing

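For the 37 members followed singly through all comparisons and alternatives, 6136 values kept their side of the threshold. Where not called, these shifted by less than the member's SD within groups, and small ones could turn sign. The age mean of Rps2, for example, turned sign in 11 of 25 alternatives. A further 398, not called either way, moved by at least that SD. Another 34 came past the threshold, 27 fell short of it (7 of Rpl31 and 20 of Rpl3l) and 0 reversed a call. Members called stayed at 0 of 80 in the planned comparisons, except with array weights and 0 to 1 with 1 array left out for age in controls. Weights gave 5 members for knockout at 2 months, where 1690 of 21884 genes were called. They gave 4 and 6 members for age in controls and knockouts, where 3636 and 3719 genes were called. For the knockout mean, trend moderation and weights each gave 2 members, beside 340 and 1284 genes. For the age mean (2) the counts were 5 with quantile scaling, 4 with trend moderation and 8 with weights, beside 1662, 2531 and 8369 genes. The count was 1 with no filter, with the slide or scan day in the fit and with a replicate block. It was 0 with median centring, the mean of probes or without the second scan day, and 0 to 2 with 1 array left out.

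Members' medians under normexp with quantile, quantile and median centring were 0.0054, 0.0336 and -0.30 for knockout at 1 month (-0.0273 without the second scan day), -0.13, -0.10 and -0.30 for age in controls, -0.0773, -0.0784 and 0.0497 for age in knockouts, -0.10, -0.0825 and -0.12 for the age mean, and 0.0313, 0.0132 and 0.31 for the difference of effects. The knockout mean had -0.14 when centred. With 1 array left out the medians ran from -0.0777 to -0.0273 and 0.02 to 0.11 for the knockout at 1 and 2 months, -0.03 to 0.02 for its mean, 0.06 to 0.14 for the difference, -0.08 to 0.04 and 0.07 to 0.13 for age in controls and knockouts, and 0.00 to 0.07 for its mean.

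Genes called over the whole table moved as follows. Knockout at 1 month (6) gave 11 with normexp or a filter on all arrays, 17 with trend moderation, 31 with weights, 3 with a replicate block, and 0 when centred, without the second scan day or with only the arrays compared. At 2 months (30) these were 81 (trend), 1690 (weights), 15 (no filter), 8 (scan day left out), 6 (block), 4 (centred) and 0 (arrays compared). The knockout mean (161) gave 9 (centred), 83 (no filter), 292 (all arrays), 104 (mean of probes), 72 (scan day term), 18 (scan day left out), 52 (block), 340 (trend) and 1284 (weights). Age in controls (472) gave 84 (centred), 265 (no filter), 709 (all arrays), 309 (mean of probes), 261 (slide), 230 (scan day left out), 191 (block), 788 (trend), 3636 (weights) and 9 (arrays compared). Age in knockouts (179) gave 107 (quantile), 31 (no filter), 407 (all arrays), 41 (mean of probes), 112 (slide), 114 (scan day term), 441 (trend), 3719 (weights) and 0 when centred, without the scan day, with the block or with only the arrays compared. The age mean (1960) gave 206 (centred), 1271 (no filter), 824 (scan day left out), 1221 (block) and 8369 (weights). With 1 array left out the ranges were 0 to 6, 11 to 23, 56 to 110, 155 to 423, 0 to 156 and 1041 to 2074 in that order, and 0 to 0 for the difference of effects. The causes were not tested.

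Whether replicate numbers pair the hearts was not decided, because only arrays with the same number were correlated. Their deviations correlated from -0.69 to 0.49, and the replicate block moved the calls as given. Precision is limited by 3 arrays per group; other probes of a member that are dim differ more from its brightest probe than bright ones do.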
